A study of Mus musculus with 8 samples.

Results

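The glucuronosyltransferases (UGT) and sulfotransferases (SULT) of the mouse were followed across brain, kidney and liver after lead exposure. Members were all probes outside the array's controls whose gene name in the scanner files is a UGT1, UGT2 or UGT3 gene or a numbered SULT gene. The rule took 46 probes of 33 gene names (14 UGT with 18 probes and 19 SULT with 28 probes) among 56605 probes of 37074 gene names. Male mice received distilled water (control), 100 mg/L lead acetate (low dose) or 1000 mg/L lead acetate (high dose) to drink over 3 weeks. RNA from small tissue pieces was measured on 8 one-colour Agilent arrays, with brain and kidney at control, low and high dose, and liver at high dose and control. Each group had 1 array, so differences within a tissue could not be set against replicates and carry no p-value. Strain, age and the number of mice behind each RNA sample are not given in the sources used here. The exposed and control mice carried no other stated treatment or allele.

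Both enzyme families make small lipophilic molecules more soluble for excretion into bile or urine. UGT enzymes sit in the membrane of the endoplasmic reticulum and transfer glucuronic acid from UDP-glucuronic acid to phenols, bilirubin, bile acids, steroids and drugs. SULT enzymes are cytosolic and transfer sulfate from the donor PAPS to phenols, catecholamines, hydroxysteroids and bile acids. The UGT1A genes are a single locus in which alternative first exons, one per enzyme, join the same downstream exons. The Ugt2b genes lie side by side as separate genes, whereas Ugt2a1 and Ugt2a2 share downstream exons.

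The probes of the UGT2 genes are shown first, because the largest set of differences lay among them and because close relatives could share signal. They are 60 bases long, and positions are the mm9 coordinates of the array files. The 9 UGT2 probes and the reported probes of Sult1b1, Sult1d1 and Sult1e1 lie within 686 kb of chromosome 5, at chr5:87554155-87554214 for Ugt2b5, chr5:87669707-87669766 for Ugt2b37 and chr5:87839345-87839404 for Ugt2b38, all on the minus strand. In the lines below, capitals mark the 18 bases in a row that the Ugt2b5 and Ugt2b37 probes share.
Ugt2b5: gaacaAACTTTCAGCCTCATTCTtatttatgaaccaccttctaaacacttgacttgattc
Ugt2b37: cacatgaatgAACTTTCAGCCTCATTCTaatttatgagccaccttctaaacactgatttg
Ugt2b38: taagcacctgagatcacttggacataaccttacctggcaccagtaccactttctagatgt
Ugt2b36: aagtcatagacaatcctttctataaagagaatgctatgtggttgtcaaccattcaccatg
Ugt2b35: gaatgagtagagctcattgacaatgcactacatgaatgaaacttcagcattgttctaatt
Ugt2b34: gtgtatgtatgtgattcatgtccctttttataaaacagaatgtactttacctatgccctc
The probes of Ugt2b5 and Ugt2b37 match at 50 of 60 bases when aligned, so signal of one transcript on the other's probe is possible. Over the 36 pairs of UGT2 probes the longest shared run had a median of 6 bases. The Ugt2b36 probe lists the accession of Ugt2b37 beside its own, and its mm9 position extends with a gap over 14459 bases. The probes of Ugt2b38, Ugt2b35 and Ugt2b34 list their own gene alone.

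The start regions of the same genes are shown because 5 of them moved together in the kidney. Each sequence runs from 250 bases before to 50 bases after the RefSeq start site (build GRCm38.p6), is written on the gene's own strand and has AGGTCA, the half-site letters of many nuclear receptors, in capitals. In GRCm38.p6 they are chr5:87140291-87140590 for Ugt2b5, chr5:87254739-87255038 for Ugt2b37, chr5:87424154-87424453 for Ugt2b38, chr5:87092506-87092805 for Ugt2b36 and chr5:86906888-86907187 for Ugt2b34, all on the minus strand, and chr5:87000610-87000909 on the plus strand for Ugt2b35.
Ugt2b5: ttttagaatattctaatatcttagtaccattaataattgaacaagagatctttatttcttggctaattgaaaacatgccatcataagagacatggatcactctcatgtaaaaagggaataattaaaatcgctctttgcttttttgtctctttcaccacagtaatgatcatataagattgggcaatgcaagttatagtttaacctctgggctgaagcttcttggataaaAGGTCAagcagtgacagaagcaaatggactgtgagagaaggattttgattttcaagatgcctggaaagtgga
Ugt2b37: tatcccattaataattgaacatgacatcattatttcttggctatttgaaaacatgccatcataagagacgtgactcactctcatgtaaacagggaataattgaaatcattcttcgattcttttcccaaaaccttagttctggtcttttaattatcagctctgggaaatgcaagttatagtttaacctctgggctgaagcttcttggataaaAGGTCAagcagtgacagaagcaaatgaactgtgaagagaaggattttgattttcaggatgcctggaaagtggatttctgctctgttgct
Ugt2b38: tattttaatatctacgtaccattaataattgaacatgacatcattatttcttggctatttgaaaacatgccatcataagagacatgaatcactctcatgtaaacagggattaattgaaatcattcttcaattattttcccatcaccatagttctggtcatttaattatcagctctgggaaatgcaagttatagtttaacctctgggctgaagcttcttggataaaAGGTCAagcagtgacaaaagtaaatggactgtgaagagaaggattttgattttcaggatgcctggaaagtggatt
Ugt2b36: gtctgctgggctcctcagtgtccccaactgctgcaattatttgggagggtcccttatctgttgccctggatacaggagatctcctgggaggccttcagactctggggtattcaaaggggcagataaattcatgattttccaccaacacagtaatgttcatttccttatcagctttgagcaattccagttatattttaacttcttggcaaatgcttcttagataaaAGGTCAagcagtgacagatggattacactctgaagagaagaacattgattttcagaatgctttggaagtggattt
Ugt2b35: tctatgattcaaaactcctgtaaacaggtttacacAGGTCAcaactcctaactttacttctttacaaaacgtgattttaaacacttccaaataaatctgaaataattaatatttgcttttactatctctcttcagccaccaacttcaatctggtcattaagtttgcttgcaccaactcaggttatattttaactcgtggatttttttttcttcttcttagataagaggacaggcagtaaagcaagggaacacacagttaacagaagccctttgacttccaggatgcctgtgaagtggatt
Ugt2b34: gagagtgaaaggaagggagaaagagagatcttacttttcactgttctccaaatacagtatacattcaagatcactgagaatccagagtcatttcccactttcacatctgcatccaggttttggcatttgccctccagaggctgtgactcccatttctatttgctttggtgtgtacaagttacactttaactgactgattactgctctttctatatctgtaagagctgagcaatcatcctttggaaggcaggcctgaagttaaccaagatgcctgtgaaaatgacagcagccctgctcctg
The Ugt2b37 and Ugt2b38 regions were identical at 95.45% of aligned bases, and Ugt2b5 was identical to them at 89.49% and 90.0%. Ugt2b36 reached 69.58% to 71.01% against these 3 genes, Ugt2b35 62.28% to 67.87%, Ugt2b1 59.42% to 59.48% and Ugt2b34 55.04% to 57.84%. Of the UGT2A genes, Ugt2a1 reached 53.57% to 63.53% against the same 3 genes, Ugt2a3 53.74% to 60.15% and Ugt2a2 50.88% to 53.74%. The range of Ugt2a1 thus overlaps that of Ugt2b35. The letters AGGTCA began at -22 in Ugt2b5, -25 in Ugt2b38 and Ugt2b36, -39 in Ugt2b37 and -215 in Ugt2b35, counted from the start site, and they were not found in Ugt2b34 or Ugt2b1. On either strand they occur in 16.3% of 32851 mouse promoters of this length and in 10 of 39 promoters of UGT and SULT genes. Of other letters searched on both strands, TGTTCT, a steroid receptor half-site, was in Ugt2b34 and Ugt2b36 among 7 Ugt2b promoters and in 19.0% of all. TGACNNNGC, the antioxidant response core, was in none of the 7 and in 12.4% of all. The last 4 letters of AGGTCA can overlap the reverse strand of TGACNNNGC. These matches describe the letters of related sequences and not binding sites.

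Levels are log2 signals relative to the 75th percentile of their own array, and a difference is one level minus another. That percentile was 427 to 435 signal units on the liver arrays, 729 to 782 in kidney and 919 to 954 in brain, and 53.4% to 67.1% of spots were well above background. The tissue labels fitted their marker genes. The summed signal of 18 hepatocyte markers was 10502 and 10905 times the percentile on the high-dose and control liver arrays and at most 238 times elsewhere. The 7 neuron markers summed to 258 to 272 times in brain and to at most 25.6 times elsewhere. The 12 proximal tubule markers summed to 2010 to 2353 times in kidney and to at most 992 times elsewhere. Each member probe has 1 spot per array, none was saturated, and a gene is reported by the probe with the highest mean level. A level depends on the probe, so levels are compared between arrays for a gene and not between genes. On every array of the tissue, 23 member genes were well above background in liver, 21 in kidney and 8 in brain.

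In the kidney at the high dose 3 of the 7 genes of the UGT2B enzymes, which conjugate steroids and bile acids, were lower by the 2-fold rule. They were Ugt2b5, Ugt2b37 and Ugt2b38, while Ugt2b36 and Ugt2b35 stood just short of that size, Ugt2b34 differed by 0.23 and Ugt2b1 was not above background. No member was higher by 2-fold among those measured on both arrays, and the low dose did not show the pattern. A gene was called higher or lower if it differed by at least 1, by more than 3 times its array error, and was well above background on both arrays. The array error combines the scanner software's errors of both spots and was 0.20 for these probes.

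The Ugt2b5 level was 3.84 on the control, 3.57 on the low-dose and 2.75 on the high-dose kidney array. That is a high-dose difference of -1.09 from control, or 2.13-fold lower. Ugt2b37 stood at 5.38 on the control, 5.15 on the low-dose and 4.37 on the high-dose array, 2.01-fold lower at the high dose. The high-dose array was the lowest of the 3 for both genes, with the low-dose array near the control. Ugt2b38, at 7.01 on the control, 6.94 on the low-dose and 6.01 on the high-dose array, differed by -1.0001, at the edge of the rule. Ugt2b36 (3.89, 3.75 and 2.94 on the control, low-dose and high-dose arrays) differed by -0.95. Ugt2b35 (0.90, 0.78 and -0.03 in the same order) differed by -0.92. All 5 genes were thus lowest on the high-dose array. The probes of Ugt2b5 and Ugt2b37 match at 50 of 60 bases, and the probe of Ugt2b36 also lists Ugt2b37. These 3 probes may therefore share signal and may not be separate measurements of separate genes.

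Of 21 members measured on both arrays, 3 were lower and 0 higher, against 0.542% of all measured genes lower, 1.12% higher and 1.66% changed either way. With a 1.5-fold rule in place of 2-fold, 5 of 21 were lower and 0 higher, against 1.29% and 2.11% of all genes. Under scaling to the array median only Ugt2b5 kept its call, with Ugt2b37 at -0.9987 and Ugt2b38 at -0.989, and with the deposited value table Ugt2b38 stood at -0.9972 and lost its call too. Over the 8 settings run the difference was -1.09 to -1.04 for Ugt2b5, -1.03 to -0.9987 for Ugt2b37 and -1.06 to -0.989 for Ugt2b38.

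The other UGT2 genes of the block did not share that size of difference. Ugt2a3 was at -2.07 on the control, -1.77 on the low-dose and -2.61 on the high-dose kidney array, a difference of -0.54. Ugt2b34 was at 0.55, 0.39 and 0.78 on the control, low-dose and high-dose arrays, a difference of 0.23 and the only UGT2 gene above 0. Ugt2a1, an enzyme of olfactory epithelium whose probe also lists Ugt2a2, differed by -0.21, and Ugt2b1 was not well above background on any kidney array. The median difference of the 8 measured UGT2 genes was -0.94, with 7 of 8 below 0, against -0.03 for all 21232 measured genes. In the order of the probes, the 5 genes with differences near -1 are neighbours apart from Ugt2a3, which lies between Ugt2b37 and Ugt2b38. The sulfotransferases Sult1b1 and Sult1d1 beyond that end of the block differed by 0.43 and -0.14.

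**Figure D1:**
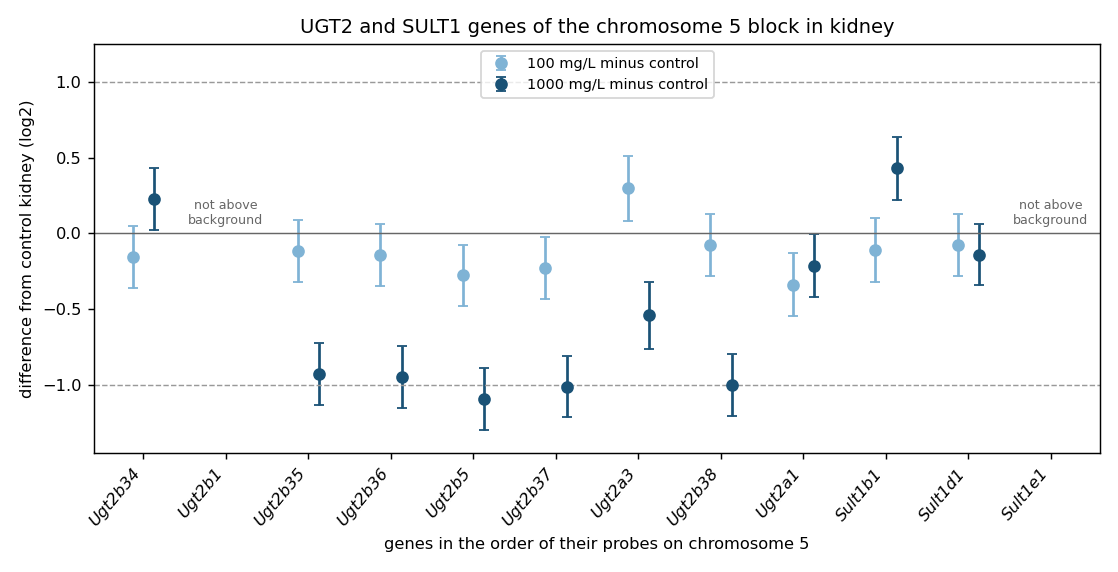
Differences from the control kidney (log2, vertical axis) for the low-dose (light) and high-dose (dark) arrays, with genes in the order of their probes along chromosome 5. Bars are the array error and not a spread between mice, and dashed lines mark 2-fold. The dark points of Ugt2b35, Ugt2b36, Ugt2b5, Ugt2b37 and Ugt2b38 lie between -0.92 and -1.09, while the light points of all genes drawn lie between -0.34 and 0.30.

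At the low dose none of the 21 measured members passed the rule against the control kidney, where 0.49% of all genes did, and the members ranged from -0.34 to 0.35. The median of the UGT2 genes was -0.15. Between the high and the low dose none of 22 members passed the 2-fold rule, against 1.07% of all genes. The 1.5-fold rule took 6 lower (Ugt2b38 -0.93, Ugt2a3 -0.84, Ugt2b5 -0.82, Ugt2b35 -0.81, Ugt2b36 -0.80 and Ugt2b37 -0.78), against 0.597% of all genes, and 1 higher, Ugt1a10, against 1.49%. Both kidney comparisons share the high-dose array and are not independent.

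Other genes also stood apart on the high-dose kidney array. Of 15 measured hepatocyte markers 7 were higher and 0 lower there than in the control (median 0.74), among them Serpina1c (3.22), Serpinc1 (2.20) and Hpx (1.67). Differences were above 0 for 12 of the 15 and below it for Tat (-0.84), Cyp2e1 (-0.69) and Cyp3a11 (-0.33). The summed signal of that list was 189 times the percentile on the high-dose array and 238 times on the control, most of it Cyp2e1, which proximal tubule also expresses. Without Cyp2e1, left out after seeing the data, the sum was 53.8 times on the high-dose and 20.3 times on the control kidney array, against 9681 and 10168 times on the high-dose and control liver arrays. Most of that rise in kidney was Serpina1c alone, at a level of 4.71 on the high-dose and 1.48 on the control array. Of 8 measured sperm markers 7 were higher (median 2.56), with sums of 24.3 times the percentile at the high dose and 5.58 times in control. The urothelium markers were higher for 3 of 4 measured (median 1.66), and at the low dose for 4 of 4 (median 1.80). Adrenal markers were lower for 2 of 5 at the high dose (median -0.61) and 2 of 4 at the low dose, and adipocyte markers for 1 of 8 (median -0.70). The 12 proximal tubule markers, of the cells that carry out most renal drug conjugation, had 0 calls and a median of -0.18 (range -0.69 to 0.13). The part of these shifts in the UGT2 values was not tested. In such tissue pieces fewer cells of a type and less RNA per cell cannot be told apart.

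None of the 3 reported UGT1A probes passed the 2-fold or the 1.5-fold rule in the high-dose kidney, with differences of 0.18 to 0.59, and 1 further probe passed the 1.5-fold rule. The UGT1A enzymes conjugate bilirubin, phenols and many drugs. Ugt1a6b, an enzyme for small planar phenols, has 3 probes. The one upstream lies at chr1:90004249-90004308 (plus strand) and lists Ugt1a6b alone. The reported one lies at chr1:90115493-90115552, lists 4 UGT1A genes. Probe positions were not assigned to exons here. The upstream probe is shown with that of Ugt1a10 (chr1:89952780-89952839), which also lists Ugt1a9, since both lie apart from the other 3 probes.
Ugt1a6b: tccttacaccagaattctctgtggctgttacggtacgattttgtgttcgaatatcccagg
Ugt1a10: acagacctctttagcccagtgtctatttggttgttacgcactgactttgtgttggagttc
The level at the upstream Ugt1a6b probe was -2.89 on the control, -2.98 on the low-dose and -2.01 on the high-dose kidney array. Its difference of 0.88 was 3.90 times the array error of 0.23 and passed the 1.5-fold rule. The reported probe stood at 6.56 on the control, 6.55 on the low-dose and 7.001 on the high-dose array (difference 0.44), and the second probe at 4.56, 4.58 and 5.09 (0.53). Ugt1a10, an enzyme best known from the intestine, was at 1.32, 1.27 and 1.91 on the control, low-dose and high-dose arrays, a difference of 0.59. The Ugt1a6a probe, which also lists 4 UGT1A genes, differed by 0.18, within its array error of 0.22. On all 5 UGT1A probes the high-dose kidney array was thus the highest of the 3. The 3 reported probes had a median difference of 0.44. Since 3 of the 5 probes list several UGT1A genes and 3 belong to Ugt1a6b, they are not separate measurements of separate genes.

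**Figure D2:**
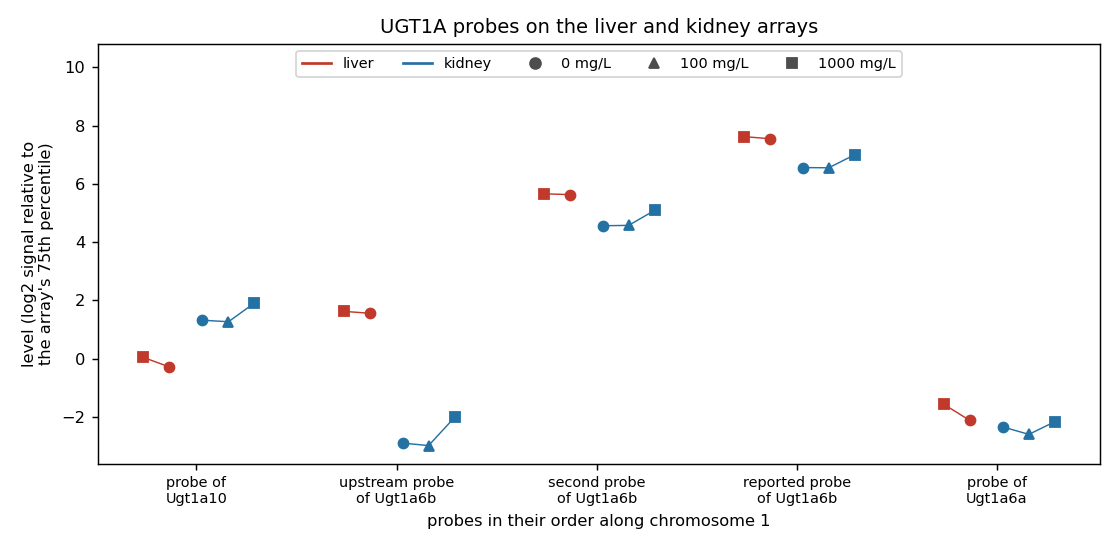
Levels (log2 relative to the array's 75th percentile) at the 5 UGT1A probes, in their order on chromosome 1, on the liver arrays (red, high dose then control) and the kidney arrays (blue, control to high dose). Squares mark 1000 mg/L, triangles 100 mg/L and circles control, and each point is 1 array. In kidney the square is the highest point at every probe, by 0.88 over control at the upstream Ugt1a6b probe and by 0.18 at the Ugt1a6a probe.

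The UGT3 genes, whose human products use other sugar donors than glucuronic acid, were slightly lower in the high-dose kidney. Ugt3a1 was at 5.83 on the control, 5.70 on the low-dose and 5.35 on the high-dose array, a difference of -0.49. Ugt3a2 was at 6.40, 6.34 and 6.05 in the same order, a difference of -0.35, and its other 2 probes differed by -0.41 and -0.43. Neither gene passed the 2-fold or the 1.5-fold rule.

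The sulfotransferases of the high-dose kidney showed no shared direction against control. At the high dose 4 of 8 measured on both arrays lay above 0 and 4 below it (median 0.07), over a range of -0.16 to 0.55. Between the high and the low dose 7 of 9 lay above 0 (median 0.20). Between the low dose and control 6 of 8 lay below 0 (median -0.09). None of them passed a rule in either comparison. Sult1c2 and Sult1d1, which had more signal in kidney than in liver or brain, moved little with dose. Sult1c2 was at 5.59 on the control, 5.46 on the low-dose and 5.43 on the high-dose array. Sult1d1, a catecholamine sulfotransferase, was at 4.04, 3.96 and 3.90. Sult2b1, which sulfates cholesterol and pregnenolone, was at -3.86, -3.63 and -3.31, a difference of 0.55 with an array error of 0.285. The phenol sulfotransferase Sult1a1 was at 0.56, 0.91 and 0.97, a difference of 0.41. Neither of them passed a rule.

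One probe of Sult2a6, a hydroxysteroid sulfotransferase gene by its name, lit up on a single kidney array. Its level was -0.99 on the high-dose array, and it was not well above background at the low dose (-4.79) or in the control (-7.06). The signal was at least 14.5-fold higher than in the control and at least 12.05-fold higher than at the low dose. Such a bound compares the bright signal with the dimmest detected signal of the other array, or with the probe's own value there if that is larger. The other 2 Sult2a6 probes were not well above background on any kidney array. The bright probe lists no RefSeq accession, and its mm9 position (chr7:14807912-14821984, minus strand) extends over 14073 bases.
Sult2a6: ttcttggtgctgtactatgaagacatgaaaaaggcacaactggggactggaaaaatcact
On the liver arrays this probe was below background, and a second Sult2a6 probe, which also lists Sult2a1 and Sult2a5, was above it on the high-dose array only (-2.97, against -6.17 in control). The probes therefore disagree, and the values do not stand for the gene. The reported Sult5a1 probe was well above background at the high (-3.89) and low dose (-4.30) and not in the control kidney (-4.99), a bound of at least 1.93-fold at the high dose. Another Sult5a1 probe differed by -0.11 between the high-dose (-4.48) and control kidney (-4.37), and the remaining one was not above background in kidney, so no direction is given for the gene.

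**Figure D3:**
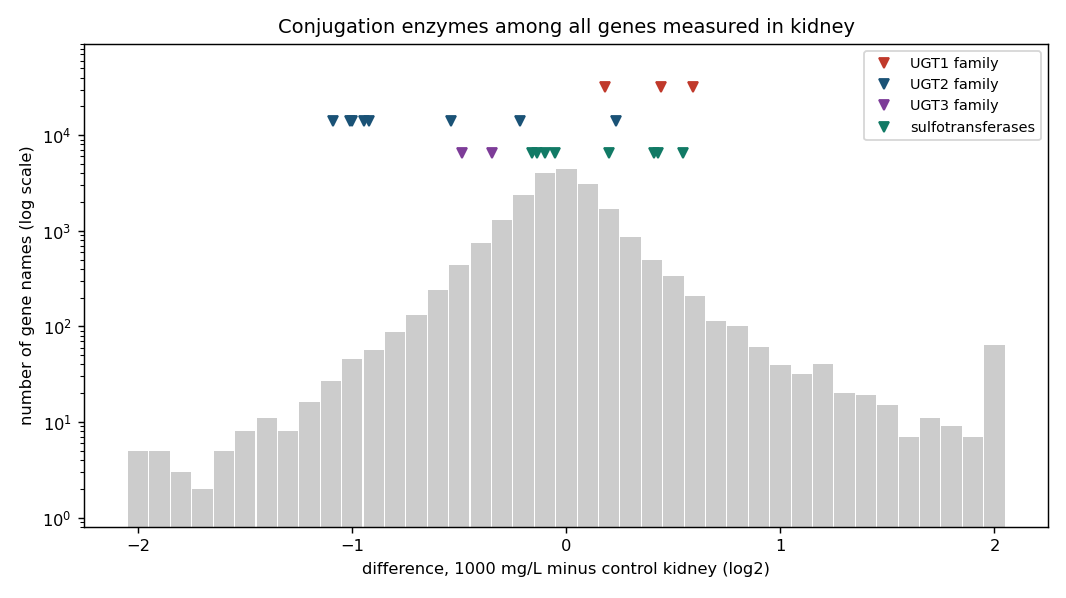
Differences between the high-dose and control kidney arrays (log2, horizontal axis) for all 21232 measured gene names (grey bars, counts on a log axis; the outermost bars gather all larger differences) and for the 21 measured members (triangles, in rows that only separate the families). Among the UGT2 triangles 5 stand between -1.09 and -0.92, the UGT1 triangles at 0.18 to 0.59 and the sulfotransferases between -0.16 and 0.55.

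In the liver no UGT2 gene passed the rule at the high dose. Their levels were within 0.25 of the control for all 9 (median -0.06, range -0.25 to 0.07). Ugt2b5 was at 6.10 on the high-dose and 6.18 on the control array, Ugt2b37 at 4.87 and 4.99, and Ugt2b38 at 7.34 on both. Whether the liver and kidney differences of these genes differ from each other has no test with 1 array per group. Over all 23 measured members 0 were higher and 1 lower, against 0.792% of all genes changed, 0.336% higher and 0.456% lower. The lower one was Sult4a1, an enzyme of neurons with no established substrate. Its level was -3.68 on the high-dose and -2.17 on the control liver array, a difference of -1.51 with an array error of 0.33. Its probe lies at chr15:83906546-83906605 on the minus strand.
Sult4a1: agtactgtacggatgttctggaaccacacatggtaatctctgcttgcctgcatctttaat
The signal was dim, the gene's second probe was not above background on either liver array, and the median difference of the 5 measured neuron markers was 0.08. With normexp background correction the difference was -0.84, and a filter on signals under 100 removed the gene. Among the rest, Ugt1a6a was at -1.56 on the high-dose and -2.12 on the control array (0.56), Ugt1a10 at 0.04 and -0.28 (0.33) and Ugt1a6b at 7.62 and 7.55 (0.07). Sult1c2 was at 1.90 and 1.32 (0.58). Each of these 4 differences was under 3 times its array error.

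In the brain 8 members were measured on both arrays of every comparison, and none passed the rule. The share of all genes that did was 0.45% at the high dose, 0.75% at the low dose and 1.05% between the high and the low dose. Sult4a1, the sulfotransferase of neurons, was flat at 5.68 on the control, 5.67 on the low-dose and 5.70 on the high-dose array. Sult2b1 was at -0.13, -0.26 and 0.20, and Sult1a1 at -0.14, -0.12 and 0.01. Ugt3a2 had the largest brain difference, 0.76 at the high dose, from levels of -4.54 on the control, -4.30 on the low-dose and -3.79 on the high-dose array, with an array error of 0.36. Sult2a7 was above background on the low-dose brain array only (-4.04), at least 1.86-fold higher than in control and at least 2.26-fold lower at the high than at the low dose. Choroid plexus markers were lower on the high-dose brain array for 10 of 11 (median -1.90), and sperm markers higher for 4 of 4 measured. The part of these shifts in the member values was not tested.

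A fit over all 8 arrays with tissue and dose as factors (limma, 3 residual degrees of freedom) asked whether the doses had an effect that the tissues share. It covered the 7 members well above background on all 8 arrays, so the kidney UGT2B genes were not among them. For neither dose did any member, or any of 17353 genes, pass a Benjamini-Hochberg adjusted p of 0.05 (0% called). At an unadjusted p under 0.05 there was 1 of 7 members at the high dose, against 1173 of the 17353 genes. At the low dose there were 0 of 7 members, against 420 of the 17353 genes. These counts are no result about the members. The 1 high-dose member was Sult1a1, with a shared high-dose difference of 0.21 (SE 0.08) and an adjusted p of 0.691 by limma. Its levels on the high-dose and control arrays were 0.97 and 0.56 in kidney, 5.96 and 5.90 in liver, and 0.01 and -0.14 in brain. The fit combines these same 3 differences, so their shared sign is no further support.

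The same fit gave the tissue differences, over 24 members well above background on every array of at least 1 tissue. All arrays share 1 slide, arrays of a tissue are different doses rather than repeats, and whether tissues came from the same mice is not given in the sources used here, so its p-values measure only the spread between these arrays. Members above background in 1 tissue alone had to differ, so calls were counted over genes above background on every array of both tissues, a count chosen after seeing the data. Between liver and kidney 10 of 20 such members were higher in liver and 5 lower, against 45.4% and 26.1% of all such genes. Between liver and brain 6 of 7 were higher in liver and 1 lower, against 57% and 26.9%. Between kidney and brain 5 of 8 were higher in kidney and 2 lower, against 48.5% and 30.4%. Another scaling moved the median of all genes: scaling to the array median took liver minus brain to 0.62 from 0.32 and kidney minus brain to 0.45 from 0.15, and quantile normalization took liver minus kidney to 0.03 from 0.20. Differences under about 0.3 between tissues therefore carry no direction.

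Apart from Ugt2a1, the UGT2 genes had no signal above background in brain, and the family divided by how far liver exceeded kidney. Ugt2b1 was at 4.10 and 4.35 on the high-dose and control liver arrays and not above background on any kidney or brain array. The liver signal was at least 497-fold that of kidney and at least 637-fold that of brain, a description with no test, since the gene was fitted only through its liver signal. Ugt2a3 was at 4.67 and 4.73 in liver, against -2.61 to -1.77 in kidney, a difference of 6.94 (SE 0.21). Ugt2b34 was at 5.39 and 5.45 in liver, against 0.39 to 0.78 in kidney (4.79, SE 0.14). For these 3 genes all liver arrays lay far above all kidney arrays. Ugt2b5 (6.10 and 6.18 in liver, 2.75 to 3.84 in kidney) and Ugt2b36 (5.76 and 5.80, against 2.94 to 3.89) were higher in liver by 2.79 (SE 0.23) and 2.28 (SE 0.25). Ugt2a1 was higher in liver by 2.94, and it was the one UGT2 gene above background on the brain arrays, at -1.17, -1.12 and -1.12 from control to high dose. Its kidney levels were -1.12, -1.46 and -1.34 in the same order, and kidney minus brain was -0.17 (SE 0.10, adjusted p = 0.148 by limma). Ugt2b37, Ugt2b35 and Ugt2b38 did not pass the test between liver and kidney, with differences of -0.16 (SE 0.39, adjusted p = 0.729 by limma), 0.17 (SE 0.24, adjusted p = 0.556) and 0.69 (SE 0.43, adjusted p = 0.192). The fit has no term for a dose difference in 1 tissue alone. The lower high-dose kidney levels of these genes therefore entered both the differences and the SE. Ugt2b38 was at 7.34 on both liver arrays, above its kidney range of 6.01 to 7.01. The liver levels of Ugt2b37 and Ugt2b35 lay within their kidney ranges. A failed test does not show equal levels.

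For Ugt2b5 and Ugt2b37, whose probes are the most alike, liver minus kidney was 2.79 and -0.16. Whether these 2 values differ, and whether the probes share signal, was not tested. Against brain, where none of the 8 UGT2 genes other than Ugt2a1 was above background, liver was at least 5513-fold higher for Ugt2b38, 2396-fold for Ugt2b5, 1873-fold for Ugt2b36, 1458-fold for Ugt2b34 and 883-fold for Ugt2a3. Kidney was at least 3431-fold above brain for Ugt2b38, 1063-fold for Ugt2b37 and 356-fold for Ugt2b5. These bounds are descriptions with no test.

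Among the other UGT genes Ugt3a1, Ugt3a2 and Ugt1a10 were lower in liver than in kidney and Ugt1a6b was higher. Ugt3a1 was at 4.11 and 4.14 on the high-dose and control liver arrays, against 5.35 to 5.83 in kidney, a difference of -1.451 (SE 0.26, adjusted p = 0.00298 by limma). Ugt3a2 was at 4.71 and 4.76 in liver, against 6.05 to 6.40 in kidney, a difference of -1.53, and it was also above background in brain. Ugt1a10 was at 0.04 and -0.28 in liver, against 1.27 to 1.91 in kidney, a difference of -1.77. These 3 genes were lower on both liver arrays than on every kidney array. The reported Ugt1a6b probe was 0.86 higher in liver than in kidney (SE 0.12, adjusted p = 0.000845 by limma), while the upstream Ugt1a6b probe stood at 1.62 and 1.56 in liver, against -2.98 to -2.01 in kidney. In brain the UGT1 signal above background came from the reported Ugt1a6b probe, at -2.09, -1.97 and -2.06 from control to high dose, and from the second one beside it. The Ugt1a6b and Ugt1a10 probes thus ordered liver and kidney in opposite ways.

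The sulfotransferases divided into tissue sets. Liver led for Sult2a8, a bile acid sulfotransferase of mouse liver, at 6.60 and 6.61 on the high-dose and control liver arrays, against -1.81 to -1.61 in kidney. That difference of 8.30 (SE 0.09, adjusted p = 3.38e-08 by limma) was the largest among members measured in both tissues. Sult1a1 was at 5.96 and 5.90 in liver, against 0.56 to 0.97 in kidney and -0.14 to 0.01 in brain. Sult2a7 was at -0.53 and -0.78 in liver and not above background in kidney, at least 16.9-fold apart. Sult5a1 was at 0.62 and 0.77 in liver, against -4.99 to -3.89 in kidney, 5.11 higher in liver. Another Sult5a1 probe was instead above background on all 3 brain arrays, where the reported one was not, so these probes disagree. Sult1b1, known for thyroid hormone sulfation, and Sult1c1 were higher in liver than in kidney by 3.80 and 1.61.

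Kidney led for Sult1c2 and Sult1d1. Sult1c2 was at 1.90 and 1.32 in liver, against 5.43 to 5.59 in kidney, a difference of -3.87 (SE 0.22, adjusted p = 1.09e-05 by limma), and kidney exceeded brain by at least 1504-fold. Sult1d1 was at 2.13 and 2.02 in liver, against 3.90 to 4.04 in kidney, a difference of -1.98, and kidney exceeded brain by at least 531-fold. Both kept kidney above liver on every array. Brain led for Sult4a1, at -3.98 to -3.64 in kidney, a difference of -9.47 from brain (SE 0.29, adjusted p = 2.76e-07 by limma), and with a liver difference of -8.66. Brain led for Sult2b1 too, at -0.26 to 0.20, against -3.86 to -3.31 in kidney, and it was at least 15.2-fold lower in liver, where the probe was not above background.

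The 8 members not well above background on any array were Sult1e1, Sult2a1, Sult2a2, Sult2a3, Sult2a4, Sult2a5, Sult3a1 and Sult6b1. They include the oestrogen sulfotransferase gene Sult1e1 and most of the SULT2A hydroxysteroid genes, so of the SULT2A genes only Sult2a7 and Sult2a8 had a steady liver signal.

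**Figure D4:**
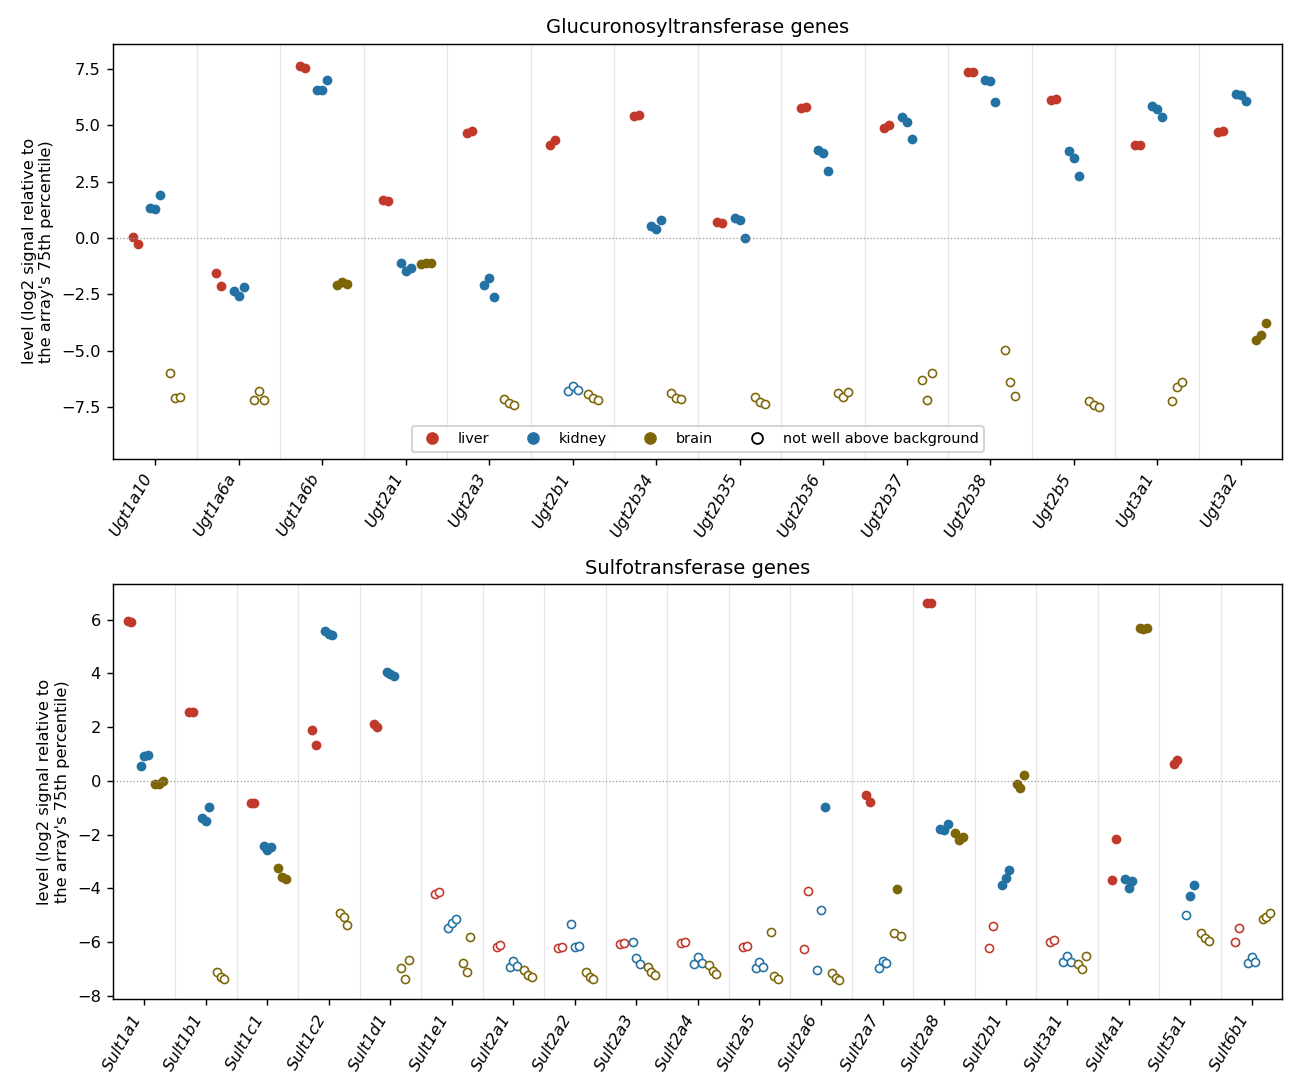
Levels (log2 relative to the array's 75th percentile, vertical axis) of the 14 UGT genes (top) and 19 SULT genes (bottom), with each point 1 array: liver in red (high dose, then control), kidney in blue and brain in olive (both control to high dose). Open points are not well above background, and levels of different genes come from different probes and are not comparable. All 14 UGT genes have filled liver points and 3 have filled brain points. Among the UGT genes the high-dose kidney point lies below the other kidney points for Ugt2b5, Ugt2b35, Ugt2b36, Ugt2b37, Ugt2b38, Ugt2a3, Ugt3a1 and Ugt3a2.

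Genes that supply or follow these enzymes were counted from lists. In the high-dose kidney 2 of 8 measured carriers of glucuronides and sulfates were higher and 0 lower. They were Abcc3 (-0.94, against -2.47 in control) and Abcc4 (1.45, against -0.05), export pumps that move conjugates out of cells, with differences of 1.53 and 1.501. At the low dose Abcc3 was at -2.11 and Abcc4 at 0.17. Ugdh, which makes UDP-glucuronic acid, was at 2.80 on the control, 2.88 on the low-dose and 3.42 on the high-dose array (0.62) and did not pass. None of 6 measured genes of UDP-glucuronic acid supply, 8 of PAPS supply and use, 11 sulfatases and 16 regulators passed the rule there. Among the regulators Hnf4a differed by 0.10 and Nfe2l2 by 0.24, and 7 of 16 lay above 0 (median -0.01). In the high-dose liver none of these lists had a call. Nr1h4, the bile acid receptor, was at 0.62 and Abcc3 at 0.59, while Foxa2 was at -0.60 and Slc22a6 at -0.54. Differences were above 0 for 10 of 18 regulators (median 0.06) and 5 of 10 carriers (median 0.03). The lists were chosen with earlier results of these data known, and their counts support nothing on their own.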

How the data were processed

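Expression was measured in 8 samples of male mouse brain, kidney and liver, 1 Agilent array (design with 60-base probes, 1 slide) per group. Labelling started from 50 ng RNA, per the labels' protocols. Per the submitters' processing notes the scans were read with Agilent Feature Extraction 12.0.3.1. The deposited per-array files give linear intensity for each spot, which per the file headers had its background removed and spatial trends corrected within the array. Other deposited columns used are 0 or 1 flags for spots above background, saturated or outlying. The deposited value table is also linear intensity: set against the scans, it is the processed signal over the array's 75th percentile of all spots, uncentred and unturned. Its column medians, from control to high dose, were 0.112, 0.113 and 0.114 for brain and 0.0940, 0.0905 and 0.0936 for kidney, and 0.0918 for high-dose and 0.0915 for control liver.

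Control and outlier spots were left out, levels were log2 processed signals minus the array's log2 75th percentile over non-control spots, and a gene was its brightest probe. Gene names are those of the array files. RefSeq (GRCm38.p6) matched 41 of 46 member probes by accession and changed 0 names. Comparisons within a tissue used the 2-fold size rule without a test. Tissue and shared dose effects came from the limma package, version 3.58.1, under R 4.3.3 (lmFit, eBayes with an intensity trend, Benjamini-Hochberg adjustment over all genes fitted). Alternatives changed background correction, scaling, probe choice, filters, size threshold, the trend, the dose term or the arrays used. Python 3.11.15 with numpy 2.4.6, pandas 2.3.3, biopython 1.88 and matplotlib 3.10.9 did the rest, and both rules were tested on simulated data.

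Genes chosen by rule to be given with array values were those past the size rule, those with a bound of at least 2-fold, and the 6 largest in each direction of a tissue contrast. Not every array's value is printed for each of them. Other members named were chosen after their values were seen. Members and lists were chosen with earlier results of these data known. The number of arrays, 1 per group, limits the precision. One regulator gene and one searched motif are not reported here.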

Additional observations from a re-analysis of the deposited data

How the results depend on the processing

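Of 139 counts of members recomputed under alternatives, 131 stayed within 1.5 times the reported count and 8 did not. Of 676 single-gene alternatives 674 stayed, none reversed and 2 moved with normexp and quantile normalization (Ugt2a3 between high and low dose in kidney to -0.55, and Sult4a1 in liver to -0.84). For high-dose against control kidney the count of 3 was 1 under scaling to the array median and 5 at a 1.5-fold threshold. For high against low dose in kidney the count of 0 was 1 with normexp and quantile normalization (Ugt2b38, lower), 1 with no filter on dim probes (Sult2a6, higher) and 7 at 1.5-fold. For liver the count of 1 was 0 with normexp and quantile normalization and 0 under the stricter filter. For high against low dose in brain the count of 0 was 1 with no filter (lower). The causes were not tested beyond what each construction shows. Of the 24 members in the tissue fits, those above background in 1 tissue alone had to differ. Leaving out each array in turn called 19 to 20 of them for liver minus kidney, against 14555 to 16299 of all 24504 genes. For liver minus brain it called 24, against 19120 to 20428 of all genes. For kidney minus brain it called 22 to 23, against 18052 to 19687. Most genes were called, so these counts are no result about the members. For both doses 0 of the 7 members fitted were called. No paired analysis was possible because each group has 1 array with replicate number 1, so the groups compared share fewer than 2 numbers. Dim signals limit the SULT2A genes, Sult2b1 in liver and Sult4a1 outside brain.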
